A study of Mus musculus with 12 samples.

Results

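P2 cells, the Kit+CD24+ erythroid progenitors of the fetal liver (FL), were compared across all genes with CD324+ cells, the fraction of the same organ that is rich in hepatoblasts. The members were chosen by their labels: the 3 libraries of Ter119-CD45-CD54-CD31-Kit+CD24+ cells and the 3 libraries of Ter119-CD45-CD54+CD31- cells at E14.5, 6 of the 12 libraries of the series. All came from C57BL/6 embryos with no engineered allele or treatment named in the labels, so both populations share strain, age, and organ and differ in the sort. FL was dissociated with liberase, cells were sorted by surface phenotype, and libraries were made from a small amount of total RNA with random priming after enzymatic removal of ribosomal RNA. The 3 CD31+ libraries (Ter119-CD45-CD54+CD31+, endothelial-rich) of the same age are given beside results where they bear on them, as levels with no test. Each population is a sort gate, not a pure cell type, and the labels do not say how many embryos each library pools. The libraries are labelled as replicates, and p-values measure the spread between these samples.

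The E14.5 FL is at once the main site of red cell production and the place where hepatoblasts, the common precursors of hepatocytes and bile duct cells, begin to make plasma proteins. An erythroid progenitor at this stage, responsive to erythropoietin and able to form a small colony of red cells, divides rapidly, takes up iron through the transferrin receptor, begins to build heme, and lays down a spectrin skeleton under its membrane before it makes much hemoglobin. A hepatoblast is an epithelial cell held by junctions to its neighbors, with a large endoplasmic reticulum and the enzymes of lipid, amino acid, and drug metabolism.

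Total counts were 44166607, 48407720, and 51559658 in the P2 libraries and 47158097, 40714017, and 50359088 in the CD324+ libraries. At this depth the number of libraries, not counting error, limits the precision for genes with many counts in both populations. Genes near 0 in 1 population rest on few counts there, and counting error bears on the size of their changes. Levels are counts per 1000000 of the TMM-adjusted library size (CPM), in the order of replicates 1, 2, and 3, and changes are log2 fold changes of P2 minus CD324+ with their SE. Genes of the mitochondrial genome took 13.6% of the counts in CD324+ replicate 1 and 4.52 to 6.67% in the other 5 libraries. *Cdk8*, *Zc3h7a*, and *Il1rapl1* together took 16.0 to 20.4% of the counts in P2 and 19.2 to 23.1% in CD324+ libraries. These genes were kept in the library size, so the totals overstate the depth for all other genes. A gene was called when its adjusted p was below 0.05 in the quasi-likelihood test of edgeR, adjusted by Benjamini-Hochberg over all genes tested. Lower expression in a bulk sample can mean fewer cells of a type or less RNA per cell, and these cannot be told apart.

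The genes of the sorting antibodies are a description, because they chose the cells. *Kit* was at 281, 291, and 337 CPM in P2 and 6.903, 12.2, and 12.9 CPM in CD324+ cells. *Cd24a* was at 447, 363, and 422 CPM in P2 and 83.6, 175, and 121 CPM in CD324+ cells. Both genes of the P2 sort were thus higher in every P2 library than in any CD324+ library. The epithelial cadherin gene *Cdh1* was at 5.22, 4.46, and 4.23 CPM in P2 and 439, 417, and 464 CPM in CD324+ cells, and *Icam1*, which encodes CD54, was at 1.08, 3.81, and 2.31 and 47.7, 49.6, and 50.8 CPM. *Pecam1* was at 4.297, 27.2, and 7.74 CPM in P2 cells, highest in replicate 2, and 3.995, 6.34, and 7.01 CPM in CD324+ cells.

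Each label was checked against marker lists of the cell types an FL sort can hold. The 20 hepatoblast markers summed to 86320, 96250, and 97470 CPM in CD324+ cells and 825, 834, and 819.6 CPM in P2 cells, 0.878 to 0.894% of the CD324+ mean. In CD31+ cells the same sum was 1.113 to 1.265% of the CD324+ mean, so the low hepatoblast signal was of like size in both other populations. Early erythroid progenitor markers summed to 5032, 4668, and 4987 CPM in P2 cells. Of 17 tested, 11 were listed by the study, whose printed list was drawn from P2 against CD324+ cells of these data. Their sum is therefore not an independent check of the label. Of the other 6 tested, 5 were called higher and 1 lower in P2 cells (median 1.85). In CD324+ cells they summed to 782, 1252, and 954 CPM, 15.98 to 25.6% of the P2 mean, highest in replicate 2. The CD324+ libraries thus held RNA of these genes, and its part in the size of the changes below was not tested. All 19 hepatoblast markers tested were called lower in P2 cells with a median of -6.80, and how far decreases near that value rest on the hepatoblast RNA in P2 libraries was not tested either.

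Other cell types were not evenly spread over the 6 libraries. The 21 endothelial markers summed to 121, 655, and 187 CPM in P2 cells and 116, 119.6, and 138 CPM in CD324+ cells, against 15280, 15490, and 14610 CPM in CD31+ cells. P2 replicate 2 stood apart from the other P2 libraries in this list, of which 19 of 21 members passed the test as higher against CD324+ cells (median 2.33), and 18 as higher and 1 as lower without that library (median 1.15). The 20 macrophage markers summed to 18.1, 68.1, and 27.6 CPM in P2 and 229.8, 246, and 384 CPM in CD324+ cells. Of 13 granulocyte markers tested 12 were called lower in P2 cells, and 4 without CD324+ replicate 2. They reached 11.8, 142, and 12.4 CPM in CD324+ cells, with replicate 2 far above the others, and 3.07, 5.46, and 4.97 CPM in P2 cells, with *Ly6g* at 0 in all 6 libraries. Stellate and mesenchymal markers summed to 1352, 1296, and 1312 CPM in CD324+ cells and 92.97, 64.3, and 93.3 CPM in P2 cells, with *Lrat* and *Hand2* at 0 in all 6.

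**Figure D1:**
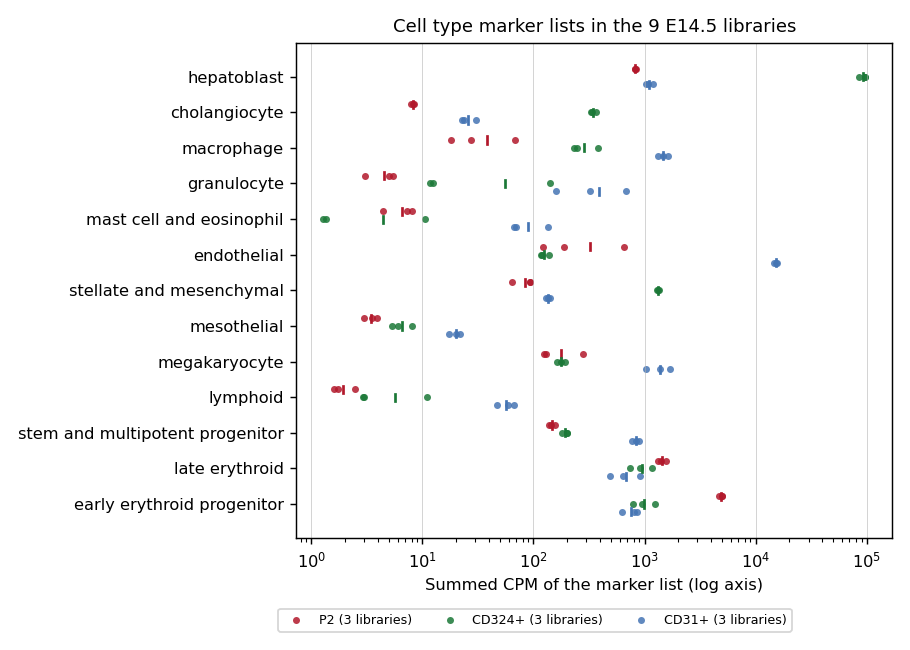
Summed CPM of 13 cell type marker lists (horizontal log axis) in the 3 P2, 3 CD324+, and 3 CD31+ libraries at E14.5; points are libraries and ticks are means. Hepatoblast markers sum to 86320 to 97470 CPM in CD324+ cells and under 1200 CPM in the other libraries, early erythroid markers are highest in P2 cells, and P2 replicate 2 stands above the other P2 libraries for endothelial markers.

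Of 15461 genes tested, 10815 (70.0%) were called between P2 and CD324+ cells, 5229 (33.8%) higher and 5586 (36.1%) lower in P2 cells. The filter covered CD31+ cells as well, so the genes tested include some with few counts in both populations compared. With only the 6 libraries compared, 14320 genes were tested and 10817 called, 5257 higher and 5560 lower. Under the library factors of the authors in place of TMM, 4008 genes were higher and 6495 lower, so the balance of directions depends on the scaling. The median change was 0.96 among genes higher in P2 cells and -2.25 among genes lower. More than 2-fold changes numbered 2478 (16.0%) higher and 4305 (27.8%) lower, and more than 16-fold changes numbered 23 higher and 1514 lower. The median over all genes tested was -0.01. Of the 2478 genes more than 2-fold higher in P2 than in CD324+ cells, 489 had a higher mean still in CD31+ cells, so a P2 excess here is an excess over CD324+ cells and not over every other cell of the FL.

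The leading genes were taken from protein-coding genes outside the lists printed in the study, with at least 10 CPM in the higher population and no overlap of libraries. *Hdac7*, a class IIa histone deacetylase (ENSMUSG00000022475, GRCm38 chr15:97792664-97844502), had the largest increase among them. Its level was 111, 127, and 122 CPM in P2 cells and 6.85, 7.83, and 7.05 CPM in CD324+ cells. The populations were far apart, with a change of 4.05 ± 0.10 (edgeR adjusted p = 2.77e-10), and CD31+ cells were at 157, 159, and 147 CPM. *Vdr*, the vitamin D receptor (ENSMUSG00000022479, chr15:97854425-97910630), was at 8.94, 12.3, and 9.68 CPM in P2 cells, 0.489, 0.956, and 0.6305 in CD324+ cells, and 1.53, 1.24, and 0.948 in CD31+ cells. It therefore stood above both other populations, with a change of 3.90 ± 0.29 against CD324+ cells (edgeR adjusted p = 8.32e-07). *Hdac7* and *Vdr* lie on the same strand of chromosome 15 with 9922 bases between their annotated ends, so the leading 2 genes of the comparison are close to each other in the genome.

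The other 8 leading genes by the same rule were of mixed function. *Podxl*, the sialomucin podocalyxin, was at 277, 249, and 302 CPM in P2 cells against 16.5, 32.4, and 23.1 in CD324+ cells, a change of 3.52 ± 0.22. *Mbp*, known for myelin basic protein and its shorter hematopoietic products, was at 119, 120.5, and 129 CPM against 11.1, 15.2, and 13.8 CPM, and at 16.4, 15.9, and 18.7 CPM in CD31+ cells. Neither gene overlapped between P2 and CD324+ libraries, and *Mbp* was in addition higher in each P2 library than in any CD31+ library. *Xylt1*, which starts proteoglycan sugar chains, changed by 3.70, *Prelid2* by 3.56, the homeobox gene *Pbx4* by 3.51, *Igsf3* by 3.49, the adhesion molecule *Icam2* by 3.25, and the lipid-binding *Osbpl3* by 3.17. *Icam2* was at 216 ± 26.8 CPM (SD, n = 3) in CD31+ cells, and within P2 cells it was highest in replicate 2 (12.5, 20.7, and 11.7 CPM), the library with the most endothelial marker RNA.

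Hepatocyte and epithelial genes were among the 10 largest decreases. *Sowahb* was at 0.0648, 0, and 0.0723 CPM in P2 cells and 17.6, 17.2, and 17.98 CPM in CD324+ cells, a change of -8.51 ± 0.42. The vasopressin receptor gene *Avpr1a* was at 0.108, 0.0587, and 0.0904 CPM against 16.9, 17.4, and 18.2 CPM. The epithelial trafficking gene *Rab17* was at 0.0864, 0.0782, and 0.0543 CPM against 12.2, 12.8, and 13.7 CPM. All 10 were under 0.25 CPM in every P2 library, so the size and order of these decreases rest on few counts. The others were *Cyp4v3*, *Cyp2a12*, *Hao2*, *Gstm6*, *Ugt2b5*, *H2-Q7*, and *Gm5096*, with changes from -8.23 to -7.34. The last 4, with *Cyp2a12*, belong to families of near-identical genes whose reads could be shared, so their single values are uncertain.

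**Figure D2:**
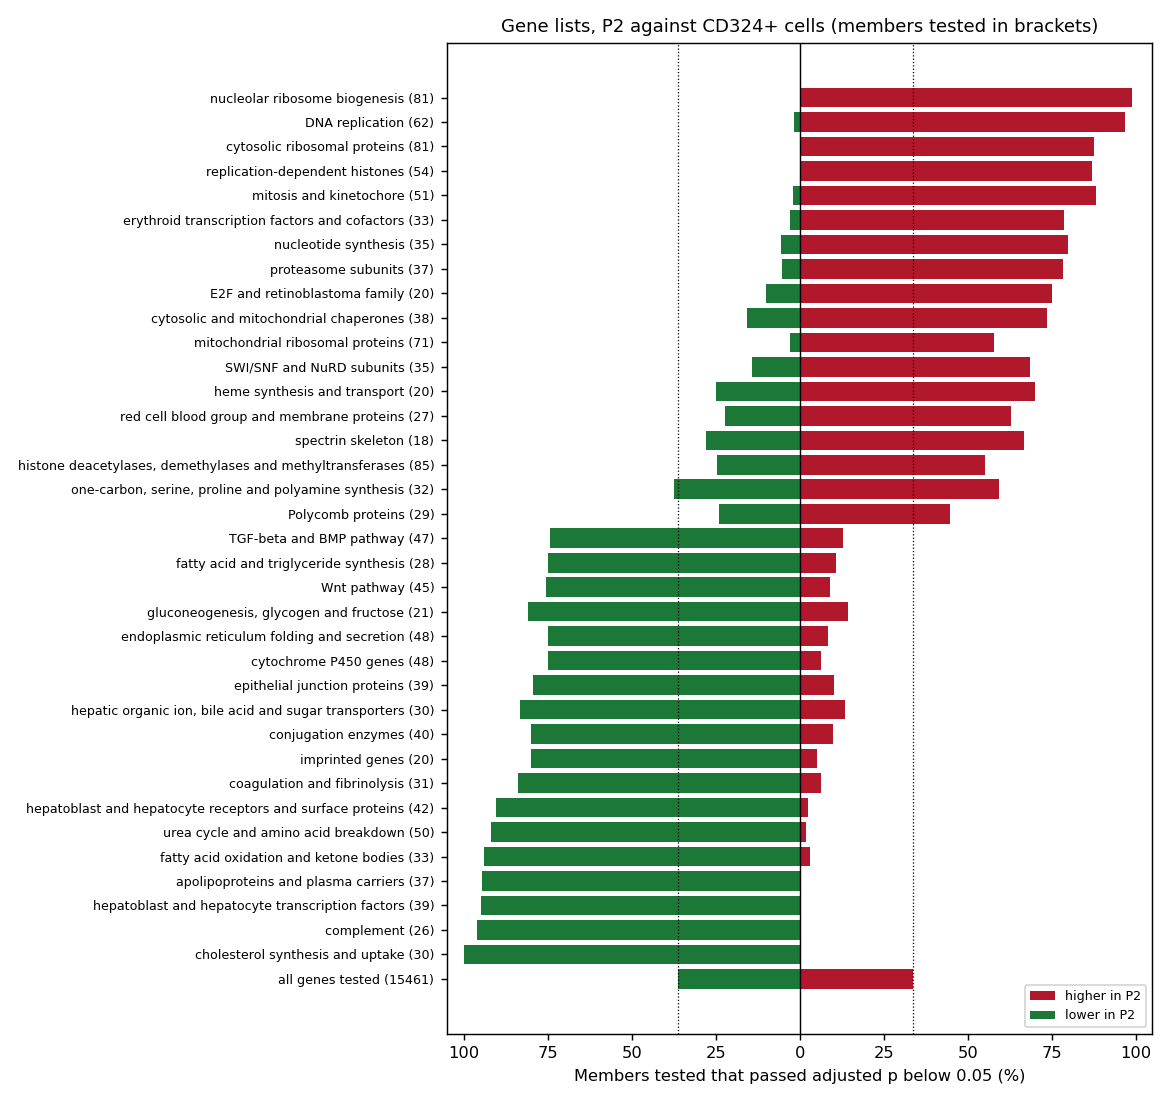
Percent of the tested members of each gene list that were called higher (right, red) or lower (left, green) in P2 than in CD324+ cells, for the 18 lists at each end among lists with at least 18 members tested; dotted lines mark all 15461 genes (33.8% higher, 36.1% lower). Ribosome biogenesis and DNA replication lists lie almost wholly to the right, and cholesterol, complement, and hepatoblast factor lists almost wholly to the left.

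Transcription factors known from red cell formation were mostly higher in P2 cells. Of 33 tested, 26 were called higher and 1 lower, with a median change of 1.31. Without the 8 that the study listed, 18 of 25 were higher and 1 lower with a median of 1.08. *Ldb1*, the bridging protein that joins GATA1 and TAL1 into a complex and loops enhancers to promoters, was at 224, 231, and 243 CPM in P2 and 51.3, 60.4, and 53.7 CPM in CD324+ cells (2.08 ± 0.12). Its partner *Ssbp2*, which protects LDB1 from degradation, was at 106, 95.6, and 92.5 against 15.6, 20.9, and 24.8 CPM (2.26 ± 0.17). Both sets of libraries were separated with no overlap. *Nfix* was at 40.98, 43.2, and 46.6 CPM in P2 cells, 9.19, 12.04, and 9.62 in CD324+ cells, and 8.502, 8.87, and 8.91 in CD31+ cells, which places P2 cells above both. *E2f4*, the repressor-type E2F that red cell precursors need for their divisions, was at 347, 365, and 335 CPM against 88.1, 109, and 92.1 CPM (1.85 ± 0.11). *Zfp90*, at -0.88, was the member called lower. *Zfpm1*, which encodes the GATA1 cofactor FOG1, was listed at 0 in all 9 libraries, as were *Tk1* and *Slc7a5*, genes that dividing cells use, and no level was read from those zeros.

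Of 33 factors of stem and early progenitor cells tested, 14 were higher and 12 lower in P2 cells, beside 33.8% and 36.1% of all genes. *Runx1*, required for the emergence of blood cells from endothelium, was at 168, 179, and 160.0 CPM in P2 cells and 22.1, 28.2, and 37.4 CPM in CD324+ cells (2.53 ± 0.19, edgeR adjusted p = 6.87e-07), and at 92.9, 79.8, and 109 CPM in CD31+ cells. *Gata2*, the GATA factor that precedes *Gata1*, was low at 4.17, 7.27, and 6.64 CPM in P2 cells, still above 0.625, 1.44, and 0.397 CPM in CD324+ cells, and at 32.1, 35, and 37.2 CPM in CD31+ cells. *Zbtb16*, which encodes the repressor PLZF, was at 9.67, 9.72, and 9.22 CPM against 0.788, 1.41, and 0.607 CPM. Every P2 library was above every CD324+ library for these 3 factors, and *Gata2* was far higher in CD31+ cells than in either. In the other direction, *Hlf* was at 1.99, 1.84, and 2.23 CPM in P2 and 64.3, 57.95, and 63.2 CPM in CD324+ cells, and *Mycn* was at 0.475, 0.978, and 0.561 against 21.8, 19.7, and 19.9 CPM. *Meis1* was lower as well, at -1.94, whereas *Myc*, of the same family as *Mycn*, was at 234, 241, and 242 CPM in P2 and 41.8, 47.8, and 47.1 CPM in CD324+ cells (2.39 ± 0.11). Without P2 replicate 2 the median of this list moved from 0.62 to -0.02.

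No hepatoblast or hepatocyte transcription factor was higher in P2 cells. Of 39 tested, 37 were lower, with a median of -5.61. *Foxa3*, a pioneer factor of liver genes, was at 0.345, 0.606, and 0.434 CPM in P2 and 75.1, 61.4, and 73.1 CPM in CD324+ cells (-7.23 ± 0.23). *Tbx3*, which keeps hepatoblasts from turning to bile duct cells, was at 0.691, 0.411, and 0.3798 against 63.9, 55.9, and 65.1 CPM. *Sall4* was at 0.713, 0.528, and 0.4703 against 71.9, 64.3, and 68.6 CPM. No P2 library reached 1 CPM for any of the 3. *Cebpa*, *Creb3l3*, and *Klf15* followed at -6.59, -6.87, and -6.45. *Gata4* was the exception in size, at 3.67, 14.1, and 5.05 CPM in P2 cells, 11.8, 13.1, and 10.4 in CD324+ cells, and 325, 325, and 271 in CD31+ cells, with -0.62 ± 0.39 short of the threshold.

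Myeloid and lymphoid factors were lower too, 14 of 22 against 2 higher, with a median of -2.39. *Spi1*, the master factor of macrophages and granulocytes, was at 0.993, 1.52, and 1.79 CPM in P2 and 4.65, 9.12, and 9.71 CPM in CD324+ cells (-2.44 ± 0.37). *Irf5* was at 0.777, 0.665, and 0.633 against 4.87, 5.201, and 6.84 CPM. *Id2* was at 3.37, 4.16, and 3.798 against 118, 141, and 146 CPM. All 3 P2 libraries lay below the lowest CD324+ library for each of these genes. *Gata3* was at 0.0648, 0.215, and 0.199 against 7.61, 4.99, and 5.72 CPM. Macrophage markers were higher in the same CD324+ libraries (18 of 19 tested called lower in P2 cells), and their part in these changes was not tested.

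Nuclear receptors were lower in P2 cells in 24 of 41 cases and higher in 8. Receptors of hepatic lipid and drug sensing led the decreases: *Ppara* was at 1.06, 0.899, and 1.25 against 79.6, 70.5, and 68.5 CPM. *Nr1i2* was at 0.713, 0.469, and 0.561 against 50.7, 46.4, and 52.8 CPM. The bile acid receptor *Nr1h4* was at 1.04, 0.567, and 0.669 against 21.1, 17.1, and 17.5 CPM. None of these P2 values reached 2 CPM. *Vdr* and *Thra*, a thyroid hormone receptor that promotes red cell maturation, led the increases, *Thra* at 135, 160.5, and 157 CPM in P2 and 59.3, 65.3, and 63.8 CPM in CD324+ cells (1.26 ± 0.12). The glucocorticoid receptor *Nr3c1*, which sustains progenitor divisions under stress, was at 117, 124, and 142 against 98.98, 102, and 113 CPM, a change of 0.29 ± 0.10 (edgeR adjusted p = 0.0273), which with the authors' factors was 0.02 and not called (edgeR adjusted p = 0.852).

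Krüppel-like and Sp factors had 8 higher and 10 lower of 22, beside 33.8% and 36.1% of all genes. *Klf9* was at 22.1, 21.99, and 25.1 CPM in P2 cells, 3.098, 2.899, and 3.22 in CD324+ cells, and 1.81, 2.69, and 3.15 in CD31+ cells, so its libraries in P2 cells lay above all others. *Sp2* rose by 1.49, while *Klf12*, *Klf2*, and *Klf6* were lower, at -5.0, -3.31, and -2.83. Immediate early genes, which dissociation and sorting can switch on, had 13 lower and 4 higher of 24 with a median of -0.75. *Egr1* was at 4.12, 5.43, and 4.59 CPM in P2 cells, 92.6, 66.98, and 98.3 in CD324+ cells, and 79.1, 57.2, and 144 in CD31+ cells. *Fos* was at 6.197, 6.804, and 8.41 against 15.6, 13.5, and 34.1 CPM. *Atf3* was at 0.648, 1.29, and 1.39 against 16.4, 6.58, and 17.1 CPM. *Egr1* was thus lowest in P2 cells among the 3 populations. The part of handling in these levels was not tested.

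STAT and IRF genes had 7 lower and 3 higher of 14 (8 and 2 with the authors' factors). *Stat5a*, which carries the erythropoietin signal, was at 66.3, 75.3, and 68.2 CPM in P2 and 23.8, 20.8, and 21.9 CPM in CD324+ cells (1.66 ± 0.10), and *Stat6* changed by 1.4. *Stat3*, which carries interleukin 6 signals in the liver, was at 61.1, 54.7, and 64.6 against 197, 193, and 197 CPM (-1.70 ± 0.10), and *Irf1* was lower at -3.75.

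Genes named Zfp, most of them zinc finger repressors of the Krüppel-associated box type, were called higher in 125 and lower in 78 of 313 cases. *Zfp61*, *Zfp984*, *Zfp992*, and *Zfp692* led, *Zfp692* at 22.6, 19.8, and 20.1 CPM in P2 and 5.73, 5.17, and 4.69 CPM in CD324+ cells. *Zfp984* and *Zfp992* lie among near-identical copies and are uncertain. With the authors' library factors the median of this list moved from 0.21 to -0.06, so no direction is read for the family. Of the 8 Hox genes that passed the filter edgeR called 0 in either direction, with 1 higher at an unadjusted p under 0.05, and DESeq2 also called 0. The whole Hox list summed to 0.540, 1.62, and 0.705 CPM in P2 and 0.707, 0.628, and 0.584 CPM in CD324+ cells. In CD31+ cells, which the filter also covered, the sum was 31.8, 29.02, and 29.3 CPM. With so few counts in both populations compared, calls were hardly possible, and nothing is read from their absence.

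**Figure D3:**
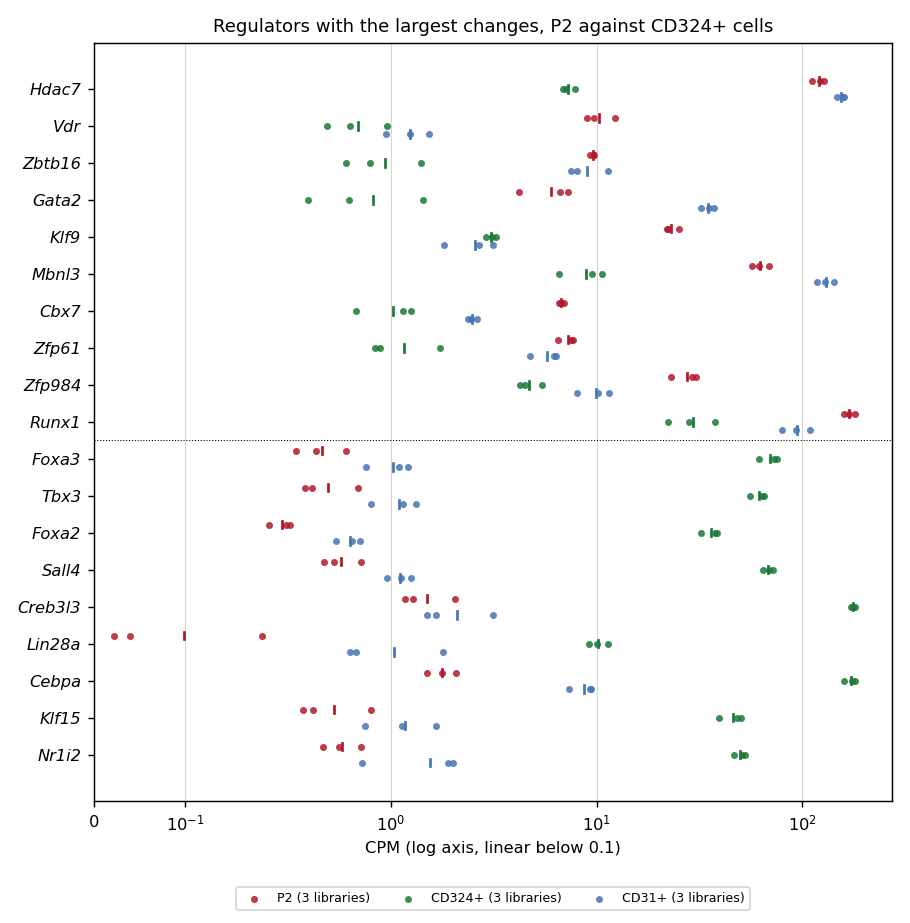
CPM of the 10 regulators with the largest increase (above the dotted line) and 9 of the 10 with the largest decrease in P2 against CD324+ cells, outside the study's lists, on a log axis that is linear below 0.1; points are the 9 libraries and ticks are means. *Hdac7* lies at 111 to 127 CPM in P2 cells and 6.85 to 7.83 in CD324+ cells, *Vdr* and *Klf9* are highest in P2 cells alone, and *Foxa3* lies below 1 CPM in P2 cells.

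Of 35 SWI/SNF and NuRD subunits, 24 were higher and 5 lower (median 0.51; 18 and 6 with the authors' factors). *Mta2*, a NuRD subunit, was at 268, 267, and 270.5 CPM in P2 and 83, 103, and 93.1 CPM in CD324+ cells (1.53 ± 0.11). *Mbd2*, the methyl-CpG reader of the same complex, was at 289, 278, and 279.7 against 112, 129.5, and 120.4 CPM. *Phf10* and *Bcl7a*, SWI/SNF subunits, rose by 1.97 and 1.73. The opposite was seen for *Chd3*, a NuRD ATPase, at 12.7, 14.9, and 13.7 against 85.4, 61.2, and 77.1 CPM (-2.44 ± 0.13). Polycomb proteins had 13 higher and 7 lower of 29, led by *Cbx7* at 6.95, 6.53, and 6.67 against 1.14, 1.25, and 0.677 CPM, with *Ezh2* at 1.35 and *L3mbtl2* at 1.48. Histone deacetylases, demethylases, and methyltransferases had 47 higher and 21 lower of 85. With the authors' factors the last count became 31 higher and 27 lower, and Polycomb 12 and 11.

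The E2F and retinoblastoma family had 15 higher and 2 lower of 20 (median 0.50; 9 and 3 with the authors' factors). Besides *E2f4*, its dimer partner *Tfdp1* was at 157, 142, and 149 CPM in P2 and 55.03, 57.2, and 59.1 CPM in CD324+ cells, the pocket protein gene *Rbl2* at 37.4, 32.4, and 34.5 against 12.6, 13.4, and 13.2 CPM. *Mybl2* was at 131, 131, and 117 against 49.3, 53.5, and 50.2 CPM. *E2f5* and *Mybl1* were the members called lower, *E2f5* at -0.56 ± 0.11. *E2f4*, *Tfdp1*, and *Rbl2* encode proteins that are found together in a repressor complex of the cell cycle.

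RNA-binding regulators had 20 lower and 12 higher of 39. *Mbnl1*, a muscleblind splicing factor, was at 686, 659, and 765 CPM in P2 and 109.6, 143, and 142 CPM in CD324+ cells (2.42 ± 0.14, edgeR adjusted p = 1.05e-07). *Mbnl3* was at 56.98, 61.2, and 68.5 against 6.55, 10.6, and 9.48 CPM. Both muscleblind genes were separate between the populations. *Lin28a*, which blocks maturation of the let-7 microRNAs, was lower, unlike its paralog *Lin28b* (0.79 ± 0.10), at 0.0216, 0.0391, and 0.235 against 9.19, 10.01, and 11.3 CPM. *Trim71*, a let-7 target and RNA repressor known from embryonic stem cells, was at 1.19, 2.698, and 1.52 against 135, 102, and 125 CPM (-6.06 ± 0.29). The liver splicing and editing factors *A1cf* and *Rbm47* were lower at -6.08 and -5.92.

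Surface and transport genes were mostly lower in P2 cells. Over the 20 lists together, 938 genes were tested, 193 were higher and 517 lower, and the median was -1.25. Blood group and red cell membrane proteins were the 1 list of the 20 with more members higher than lower, with 17 higher and 6 lower of 27 (median 1.02; without listed genes 12 and 6 of 22, median 0.66). *Rhd*, an ammonium channel homolog of the Rhesus complex, was at 144, 135, and 119 CPM in P2 and 25.3, 45.7, and 28.4 CPM in CD324+ cells (2.00 ± 0.20). *Kel*, an endopeptidase and blood group antigen, was at 169, 153, and 144 against 43.3, 56.97, and 51.9 CPM. *Art4*, which carries the Dombrock antigen, was at 43.3, 37.9, and 36.6 against 7.66, 12.6, and 8.13 CPM. These antigens were high in P2 cells and detectable in CD324+ cells. *Cd55*, an inhibitor of complement, was at 40.2, 36.99, and 42 CPM in P2, 4.92, 9.41, and 5.88 CPM in CD324+, and 179, 201, and 175 CPM in CD31+ cells. Every one of these 4 was highest among CD324+ libraries in replicate 2, the library with the most early erythroid marker RNA. *Bcam*, the Lutheran antigen, was lower at -4.30 ± 0.19, and *Cd59a*, another complement inhibitor, was lower at -2.44 ± 0.18. *Icam4* and *Piezo1* were listed at 0 in all libraries.

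Cytokine receptors were lower in 28 of 41 cases and higher in 8, with a median of -1.74. Receptors of inflammatory cytokines led: *Il1r1* was at 2.94, 5.92, and 3.29 CPM in P2 and 153, 135, and 161 CPM in CD324+ cells, *Il22ra1* at 0.605, 0.469, and 0.289 against 26.9, 24.2, and 22.3 CPM. *Il6ra* was at 0.691, 0.997, and 1.32 against 13.5, 13.1, and 14.5 CPM. *Il6st*, the shared chain of the interleukin 6 family, was at 5.48, 17.9, and 6.28 against 57.3, 58.5, and 63.3 CPM. In P2 cells *Il6st* was highest in replicate 2. *Csf2rb*, the chain shared by interleukin 3 and GM-CSF receptors, was at 0.173, 0.723, and 0.416 against 6.17, 8.1, and 11.9 CPM. *Csf1r* was at 1.25, 1.21, and 1.14 against 32.5, 40.6, and 57.4 CPM and stands among the macrophage markers. *Il1rap*, *Il17ra*, and *Ifngr1* were higher in P2 cells at 1.13, 0.89, and 0.81.

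Receptor tyrosine kinases were lower in 32 of 46 cases and higher in 7 (median -2.28). *Met*, the receptor for hepatocyte growth factor, was at 4.06, 3.93, and 3.51 CPM in P2 and 204, 187, and 209 CPM in CD324+ cells (-5.71 ± 0.12). *Fgfr4* was at 1.29, 0.821, and 0.8501 against 107, 92.7, and 95.6 CPM and *Epha1* changed by -5.64. Against that direction, *Igf1r* was at 189.8, 213, and 218 CPM in P2 and 21.2, 29.6, and 29.5 CPM in CD324+ cells (2.95 ± 0.15, edgeR adjusted p = 3.73e-08), with 281, 227, and 249 CPM in CD31+ cells. P2 replicate 2 did not stand apart for *Igf1r*. *Kdr*, which was called higher (2.38 ± 0.60), was at 11.5, 71.3, and 19.6 CPM in P2 cells, 3.42, 7.23, and 8.92 in CD324+ cells, and 1841, 2046, and 1941 in CD31+ cells, and its excess was largest in the P2 library rich in endothelial markers.

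The 10 largest increases among surface and transport genes were *Plxnc1*, *Sema4d*, *Lrrc8c*, *Slc25a30*, *Igf1r*, *Gja1*, *Gpc4*, *Slc1a3*, *Kcnq5*, and *Abcc1*. *Plxnc1* (ENSMUSG00000074785, GRCm38 chr10:94790866-94944835), a semaphorin receptor, was at 53.96, 72.1, and 60.6 CPM in P2 cells, 5.08, 8.43, and 7.496 in CD324+ cells, and 306, 308, and 327 in CD31+ cells. *Sema4d*, a membrane-bound semaphorin also named CD100, was at 79.1, 82.1, and 85.7 CPM in P2 cells, 8.07, 10.8, and 11.3 in CD324+ cells, and 11.8, 18.4, and 17.6 in CD31+ cells. *Plxnc1* was thus highest in CD31+ cells and *Sema4d* in P2 cells. The rest of the guidance list ran the other way, with 28 lower and 6 higher of 49, among them *Sema4a* at -6.59, *Plxnb1*, a receptor for SEMA4D, at 2.48, 2.6, and 1.7 CPM in P2 and 224, 183, and 181 CPM in CD324+ cells, and *Robo1* at -5.15.

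*Gpc4*, a glypican, was at 32.6, 32.1, and 34.9 CPM in P2 cells, 3.91, 6.097, and 5.23 in CD324+ cells, and 6.32, 6.02, and 7.51 in CD31+ cells. It was the only one of 9 glypicans and syndecans tested that was called higher, and the other 8 were called lower, *Gpc3* at 19, 14.6, and 22.4 against 1030, 912, and 1022 CPM. *Sdc4* was at 2.05, 2.23, and 2.04 against 217, 203, and 229.9 CPM. These 2 lower members were without overlap between the populations, whereas connexins were split. *Gja1*, which encodes connexin 43, was at 17.2, 17.3, and 19.7 against 0.951, 3.29, and 2.896 CPM. *Gjb1*, the connexin 32 gene of hepatocytes, was at 0.669, 1.09, and 1.16 against 119, 115, and 119 CPM. The connexins thus differed in opposite directions, in a list of epithelial junction proteins with 31 lower and 4 higher of 39 (median -4.36), where *Cldn1* changed by -6.76, *Dsp* by -6.43, and *Dsc2* by -6.38.

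Ion channels and transporters in P2 cells included *Lrrc8c*, a subunit of the volume-regulated anion channel, at 134, 145, and 149 CPM against 15.9, 20.3, and 18.1 CPM in CD324+ cells (2.98 ± 0.11). *Kcnq5*, a potassium channel, was at 15.4, 15.1, and 12.1 against 2.201, 2.39, and 2.27 CPM. *Slc1a3*, a glutamate and aspartate transporter, was at 6.84, 7.06, and 7.199 CPM in P2, 1.03, 0.897, and 1.35 CPM in CD324+, and 3.58, 2.47, and 2.12 CPM in CD31+ cells. Among 34 amino acid transporters 10 were higher and 19 lower. *Slc7a6*, *Slc1a5*, and *Slc3a2* were higher at 2.48, 1.58, and 0.95, and the hepatic carriers *Slc38a3*, *Slc38a4*, and *Slc7a2* were lower at -6.47, -6.30, and -6.23. *Slc25a30* and other members named Slc25 are mitochondrial carriers and not surface proteins, although their symbol places them among the solute carriers.

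ABC transporters had 29 lower and 12 higher of 44. *Abcb1a*, a drug efflux pump, was at 0.0648, 0.156, and 0.199 CPM in P2 and 19.6, 19.8, and 17.4 CPM in CD324+ cells, and the bile salt pump *Abcb11* at 1.14, 0.782, and 0.832 against 96.2, 83.9, and 91.4 CPM. *Abcc1*, another efflux pump, went the other way at 48.4, 46.2, and 47.4 against 7.202, 8.82, and 7.403 CPM, as did *Abcg4*, a sterol exporter, at 45.6, 41.5, and 39.9 against 8.29, 13.8, and 9.27 CPM. *Abcb4*, known as the phospholipid exporter of bile, was at 297, 292, and 300.1 CPM in P2 cells, 90.96, 105, and 94.9 in CD324+ cells, and 23.3, 33.2, and 28.7 in CD31+ cells (1.61 ± 0.12). The list of hepatic transporters around it had 25 lower and 4 higher of 30 (median -4.71), so *Abcb4* and *Slc22a3* (1.95) moved against most of their list.

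Hepatocyte receptors and surface proteins were lower in 38 of 42 cases and higher in 1 (median -4.93). *Anpep*, aminopeptidase N or CD13, was at 2.76, 3.15, and 2.24 against 315, 306, and 318 CPM. *Asgr2*, a chain of the asialoglycoprotein receptor, was at 0.605, 0.606, and 0.488 against 67.3, 65.3, and 68.2 CPM, and *Mpzl2* at -6.91. The lower members were low in every P2 library and even across the CD324+ libraries. The tetraspanin *Tspan8* was the member called higher, at 24.6, 22.2, and 22.4 CPM in P2 and 3.995, 5.83, and 6.59 CPM in CD324+ cells. Tetraspanins as a whole had 8 higher and 10 lower of 26, shares near those of all genes. *Cd9* was at 2.59, 5.06, and 2.86 against 64.3, 70.8, and 73.9 CPM, and *Tspan5* changed by 2.18.

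MHC and antigen presentation genes had 14 lower and 2 higher of 23 (median -1.79). *H2-Q10*, a secreted class I molecule of liver, was at 3.35, 4.22, and 3.71 against 372, 435, and 402 CPM, and the *H2-Q* genes share reads and are uncertain one by one. *Tap2*, a peptide transporter subunit, was higher at 7.08, 7.62, and 8.74 against 1.55, 2.03, and 1.89 CPM. The 2 genes thus went in opposite directions with no overlap of libraries. TNF receptors had 11 lower and 3 higher of 21, with *Cd40* at 0.173, 0.4301, and 0.145 against 14.8, 15.3, and 16.4 CPM. *Fas* was at 0.281, 0.489, and 0.434 against 8.62, 9.45, and 10.9 CPM, and *Tnfrsf14* (HVEM) higher at 59.6, 58.2, and 56.9 against 13.4, 19.6, and 16.5 CPM. *Relt* was higher as well, at 1.93. Chemokine, purinergic, and lipid receptors had 26 lower and 8 higher of 52 (17 lower without CD324+ replicate 3), with *P2ry1* higher at 2.18 and *Ptger4* at 1.82, and *S1pr1* lower at -3.23.

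**Figure D4:**
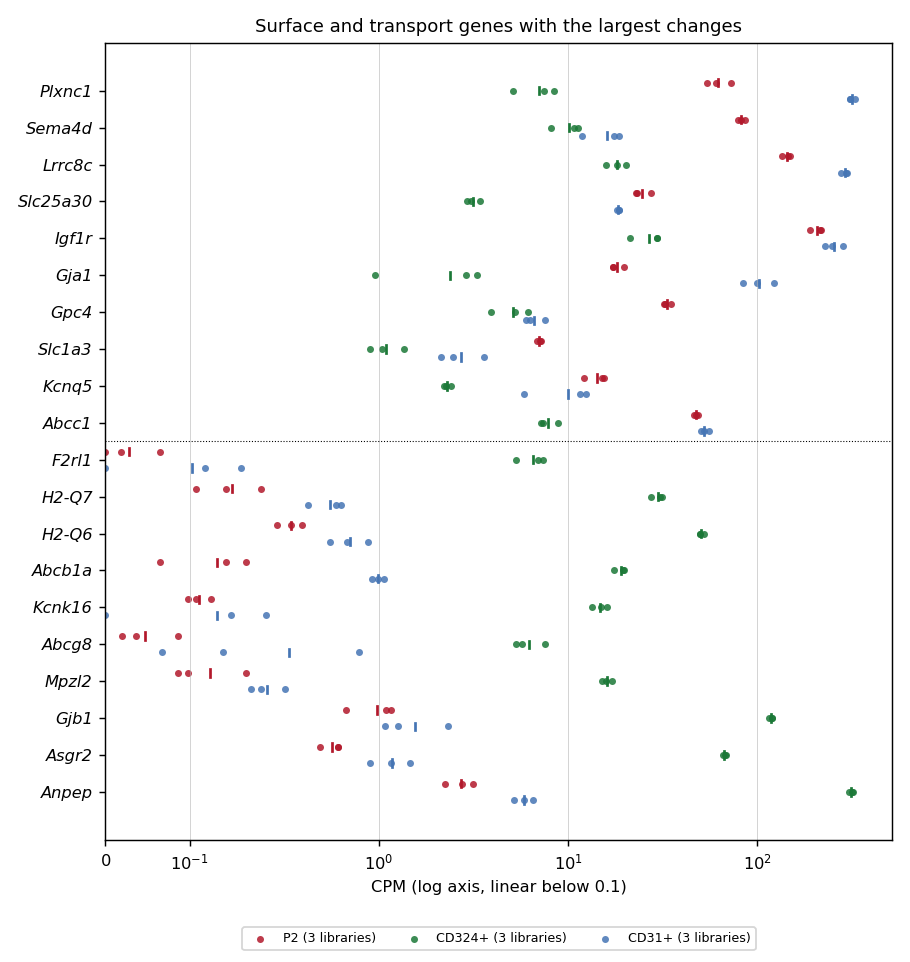
CPM of the 10 surface and transport genes with the largest increase (above the dotted line) and the 10 with the largest decrease in P2 against CD324+ cells, on a log axis that is linear below 0.1; points are the 9 libraries and ticks are means. *Sema4d* and *Gpc4* are highest in P2 cells, *Plxnc1*, *Lrrc8c*, and *Gja1* are highest in CD31+ cells, and the decreased genes lie far to the left in P2 cells, *Anpep* among them at 2.24 to 3.15 CPM.

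Genes of DNA replication and mitosis were higher in P2 cells in nearly all members tested. G1 cyclins, kinases, and CDK inhibitors had 8 higher and 9 lower of 22, shares near those of all genes. Of 62 DNA replication genes 60 were higher in P2 cells and 1 lower, with a median of 1.20. *Mcm10*, which helps fire origins, was at 277, 286, and 274 CPM in P2 and 70.5, 81.3, and 77.3 CPM in CD324+ cells (1.87 ± 0.11). *Orc1* was at 60.8, 51.7, and 53.3 against 13.9, 17.9, and 13.9 CPM. *Mcm5* was at 472, 459, and 444 against 142, 184, and 158 CPM. *Fen1* and *Chaf1b* rose by 1.69 and 1.65, and *Pold4*, a small accessory subunit of polymerase delta, was the member called lower (-1.27 ± 0.23). Nucleotide synthesis had 28 higher and 2 lower of 35 (median 1.20): *Dut*, which removes dUTP, was at 374, 329, and 360.2 against 65.6, 103, and 84.2 CPM. *Pfas*, of purine synthesis, was at 216, 216, and 244 against 53.4, 56.1, and 53.5 CPM, and *Prps2* at 2.62. Mitosis and kinetochore genes had 45 higher and 1 lower of 51 (median 0.85), with *Kif15* at 252, 251, and 251 against 78.7, 80.4, and 81.4 CPM. Replication-dependent histone genes, whose transcripts lack poly(A) tails and which random priming can capture, had 47 higher and 0 lower of 54 by edgeR, with 1 lower at an unadjusted p under 0.05 and by DESeq2 (median 1.16). *Hist1h1a* was at 969, 828, and 816 against 217, 345, and 234 CPM, and the core histone genes are near-identical copies.

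Genes of ribosome assembly were higher in P2 cells. Of 81 nucleolar ribosome biogenesis genes 80 were called higher and 0 lower by edgeR, with a median of 1.36; 1 was lower at an unadjusted p under 0.05 and was called so by DESeq2. *Ddx21*, a nucleolar helicase, was at 1022, 1007, and 1165 CPM in P2 and 226, 248, and 239.5 CPM in CD324+ cells (2.16 ± 0.09). *Ncl*, nucleolin, was at 8055, 8291, and 8863 against 2529, 2723, and 2825 CPM. *Npm1* was at 1801, 1663, and 1830 against 449, 575, and 562 CPM. The CD324+ libraries were well below every P2 library for these abundant genes. *Lyar*, known in erythroid cells as a regulator of globin genes, was at 390.5, 415, and 427 against 93.8, 113, and 108 CPM. Cytosolic ribosomal proteins had 71 higher and 0 lower of 81 (0 lower also at an unadjusted p under 0.05 or by DESeq2) with a smaller median of 0.65 (40 higher and 0 lower with the authors' factors). Their genes have many processed copies in the genome, so single members are uncertain. Mitochondrial ribosomal proteins had 41 higher and 2 lower of 71 (18 and 12 with the authors' factors), and *Mrpl50* was the one with the larger decrease (-1.34 ± 0.09).

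Protein quality control differed by compartment. Proteasome subunits had 29 higher and 2 lower of 37 (median 0.56) and chaperones of cytosol and mitochondria 28 higher and 6 lower of 38 (median 0.68). *Hsp90aa1* was at 1518, 1550, and 1466 CPM in P2 and 453, 511, and 480.3 CPM in CD324+ cells (1.65 ± 0.11), and *Hspa4l* changed by 1.64. Genes of folding and secretion in the endoplasmic reticulum had 36 lower and 4 higher of 48 (median -1.41). *Xbp1*, the factor of secretory cells, was at 22.4, 20.4, and 19.4 against 191, 206, and 190.0 CPM. *Pdia5* was at 11.4, 15.2, and 11.2 against 241, 251, and 246 CPM, and *Sec24d* at -4.53. *Hspb8*, a small heat shock protein, was lower at -7.21 ± 0.41.

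Heme genes were mostly higher in P2 cells, 14 of 20, with 5 lower (median 0.89). *Cpox*, a mitochondrial step late in the pathway, was at 905, 825, and 936 CPM in P2 and 194, 302, and 251 CPM in CD324+ cells (1.84 ± 0.17). *Alad*, an early cytosolic step, was at 172, 158, and 159 against 38.4, 68.7, and 48.97 CPM, and *Urod*, *Uros*, and *Fech* at 1.26, 1.16, and 0.92. *Cpox* and *Alad* were lowest in CD324+ replicate 1 and separate between the populations. The first step was split by gene: *Alas1*, the form of all tissues, was lower at 26.5, 33.3, and 23.1 against 100.4, 107, and 97.8 CPM, and the erythroid form *Alas2* was listed at 0 in all libraries and was not read. *Blvrb* was higher at 1.69, whereas *Hmox1*, which breaks heme down, was at 2.22, 10.5, and 5.28 against 40.9, 39.5, and 67.9 CPM, and *Slc25a39* was lower at -1.95.

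For iron, 17 of 33 genes were higher and 12 lower (13 and 12 with the authors' factors). *Tfrc*, the transferrin receptor CD71, was at 792, 670.3, and 657 CPM in P2 and 169, 236, and 181 CPM in CD324+ cells (1.85 ± 0.17). *Steap3*, the reductase of endosomes, was at 183, 172, and 164 against 41.9, 54.3, and 40.5 CPM. *Slc11a2*, which exports iron from the endosome, was at 76.3, 70.2, and 78.05 against 20, 20.98, and 18.9 CPM. The 3 genes act in sequence on iron brought in by transferrin. Systemic iron control went the other way, with *Hfe2* (hemojuvelin) at 0.475, 0.469, and 0.344 against 42.04, 42.8, and 38.7 CPM. *Tmprss6* was at 1.25, 1.68, and 1.14 against 115, 115, and 109 CPM, and *Hamp* (hepcidin) at 0.0648, 0.0978, and 0.0181 against 3.59, 3.71, and 6.59 CPM. *Ftl1* was lower at -1.22 ± 0.13, and *Fth1* was higher by 0.47 ± 0.19 (edgeR adjusted p = 0.0454; a change of 0.20 with no call under the authors' factors).

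Of the 8 hemoglobin genes edgeR called 0, with 0 at an unadjusted p under 0.05, and DESeq2 called 1, lower in P2 cells. With the authors' factors edgeR called 2 lower, and without P2 replicate 2 it called 1 higher. *Hbb-bs* was at 45.2, 41.3, and 30.8 CPM in P2 and 45.8, 116, and 70.8 CPM in CD324+ cells, and *Hba-a1* at 32.8, 32.4, and 26.8 against 37.3, 57.3, and 52.8 CPM. The highest P2 library for *Hbb-bs* lay just under the lowest CD324+ library, and the paralogs of each cluster share reads. Late erythroid markers had 8 higher and 2 lower of 13. *Slc4a1*, the band 3 anion exchanger of mature red cells, was lower at 128, 135, and 77.3 against 163, 276, and 199.6 CPM (-0.91 ± 0.25), and *Xpo7* was lower at -1.52, while *Hemgn* was higher at 319.5, 266, and 279.8 against 71.6, 134, and 92.4 CPM.

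Several gene families changed unequally within themselves, as seen in the plot of related genes, which were picked after their values were seen. In the membrane skeleton, the erythroid beta chain *Sptb* was at 682, 614, and 597 CPM in P2 and 228, 310.2, and 218 CPM in CD324+ cells, while the non-erythroid chains *Sptan1* and *Sptbn1* changed by -3.86 ± 0.30 and -2.61 ± 0.19. In CD31+ cells *Sptan1* was at 750.0, 757, and 785 CPM. Adducin 2, also erythroid, changed by 2.78 ± 0.18 and the ubiquitous *Add1* by 0.51 ± 0.09.

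Glycolysis and pentose phosphate genes had 14 higher and 14 lower of 36, shares near those of all genes (14 and 18 with the authors' factors). *Hk1* was at 507, 493, and 552 CPM in P2 and 44.8, 67.9, and 58.9 CPM in CD324+ cells, *Pfkm* at 111, 104, and 107 against 24.4, 31.4, and 23.3 CPM. *Pfkp* was at 20.1, 23.1, and 22.9 against 4.16, 5.17, and 5.32 CPM. The liver form *Pfkl* had a change of 0.09 ± 0.09 and was not called. *Aldoa*, a glycolytic aldolase, changed by 0.65 ± 0.10. Both pyruvate kinase genes were higher, *Pkm* by 2.12 and *Pklr*, which has a red cell and a liver form from separate promoters that gene counts do not tell apart, by 1.38. *Slc16a3*, a lactate exporter, was at 72.7, 67.2, and 68.4 against 14.2, 16.6, and 16.7 CPM.

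Among cell cycle entry genes *Ccnd2* was at 103, 99.2, and 136 CPM in P2 and 19.5, 26.3, and 26.2 CPM in CD324+ cells (2.23 ± 0.18). *Ccnd1* was at 2.699, 6.86, and 3.73 against 144, 144, and 158 CPM (-5.07 ± 0.30), and *Ccnd3* changed by -0.41 ± 0.13. The CDK inhibitors *Cdkn1c*, *Cdkn1b*, and *Cdkn1a* were all lower, *Cdkn1c* at 6.54, 8.52, and 5.97 against 286, 325, and 301 CPM. *Dnmt3b* was higher (1.44 ± 0.11) and *Dnmt3a* lower (-1.64 ± 0.10), *Thra* higher and *Thrb* lower (-5.20 ± 0.25), *Ctps* higher (1.20 ± 0.08) and *Ctps2* lower (-3.67 ± 0.09), and mitochondrial *Shmt2* higher (0.54 ± 0.09) and cytosolic *Shmt1* lower (-2.85 ± 0.09). Of the class II deacetylases shown beside *Hdac7*, *Hdac4* was not called (-0.24 ± 0.13) and *Hdac5*, *Hdac9*, and *Hdac6* were lower (-1.89, -1.74, and -3.26). *Lin28b* was at 119, 121, and 127 CPM in P2 and 69.2, 66.5, and 76.3 CPM in CD324+ cells, higher in P2 cells where *Lin28a* was lower. *Itga4*, the fibronectin and VCAM1 receptor chain, was at 452, 418, and 519 against 42.4, 73.6, and 66.5 CPM. *Itga5* was at 39.02, 50.4, and 41.1 against 209.5, 188, and 184 CPM.

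**Figure D5:**
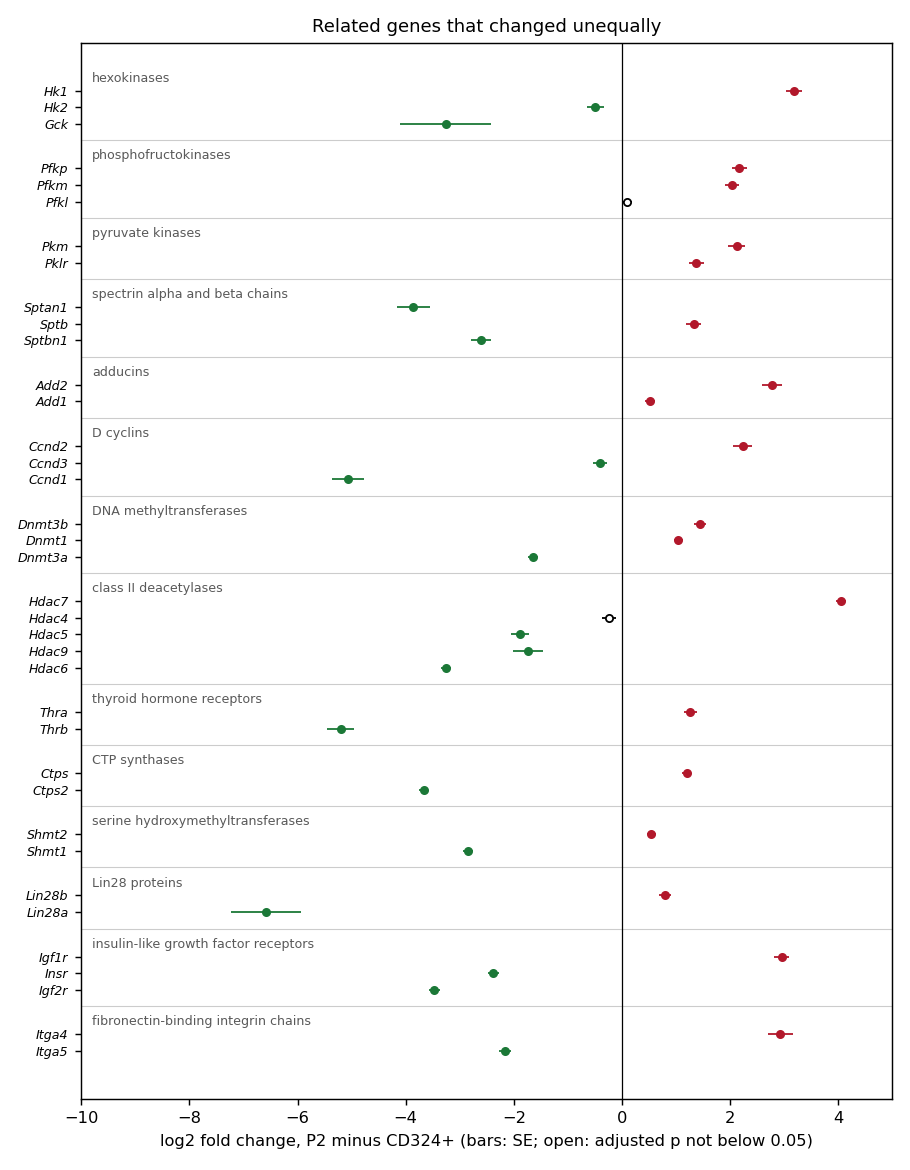
Log2 fold change of P2 minus CD324+ cells (horizontal axis, bars are SE) for members of 14 gene families, chosen after their values were seen; filled points passed adjusted p below 0.05 and open points did not. In the pyruvate kinases and adducins both members were called higher, and in each of the other 12 families members were called in opposite directions or at least 1 was not called.

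Mitochondrial energy genes were mostly lower in P2 cells or not called. Of 78 nuclear-encoded oxidative phosphorylation subunits 23 were lower and 5 higher, with a median of -0.17 (49 and 2 with the authors' factors). *Ndufa6* was at 90.7, 89.8, and 81.8 CPM in P2 and 213, 272, and 246 CPM in CD324+ cells. All 7 calls among 8 mitochondrially encoded subunits were lower, *mt-Nd2* at 306, 224, and 303 against 2152, 485, and 561 CPM. CD324+ replicate 1 was far above the others, and without it 5 of 8 were called lower and the list's median moved from -1.57 to -0.56.

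Metabolic and secretory genes of the liver were mostly lower in P2 cells. Cholesterol synthesis and uptake had 30 of 30 lower (median -3.15), with *Hmgcs1* at 23.7, 23.3, and 27.9 against 952, 1030, and 1185 CPM. It was high in all CD324+ libraries. The urea cycle and amino acid breakdown had 46 of 50 lower (median -5.79), with *Otc* at 2.09, 1.701, and 2.33 against 195, 212, and 208 CPM and *Cps1* at -6.78; *Prodh* was the member called higher (0.93 ± 0.14). No library of one population overlapped the other for *Otc*. Fatty acid oxidation had 31 of 33 lower. Fatty acid and triglyceride synthesis had 21 lower and 3 higher of 28, cytochrome P450 genes 36 and 3 of 48, and conjugation enzymes 32 and 4 of 40. Coagulation had 26 of 31 lower (median -6.41), with *Fgb* at 24.3, 25.4, and 24.8 against 2988, 3211, and 3335 CPM and *Plg* at -6.89. *Tfpi*, an inhibitor of coagulation, was higher at 38.5, 42.3, and 38.9 against 8.098, 10.1, and 11.7 CPM, with 154, 169, and 160.2 CPM in CD31+ cells. *Tfpi* was highest in CD31+ cells, and its P2 libraries were all above the CD324+ libraries. Complement had 25 of 26 lower and apolipoproteins and plasma carriers 35 of 37 (median -6.74), with *C3* at 49.4, 55.04, and 49.6 against 6191, 5561, and 6250 CPM. *Apoa2* was at 27.98, 32.7, and 29.3 against 3402, 3515, and 4137 CPM.

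Ligand and receptor pathways were mostly lower as well. TGF-beta and BMP genes had 35 lower and 6 higher of 47 (median -2.15). The counts were 35 and 3 with the authors' factors, and 35 and 4 without P2 replicate 2, the library with the most endothelial marker RNA. *Tgfb1*, the ligand, was higher at 94.9, 106, and 96.1 CPM in P2 and 15.7, 26.5, and 22.9 CPM in CD324+ cells, as was *Ltbp1*, which binds its latent form, at 47.3, 53.2, and 53.7 against 6.12, 8.19, and 8.57 CPM. The receptors *Tgfbr2* and *Bmpr1a* were lower at 6.41, 14.02, and 8.38 against 97.9, 81.8, and 89.9 CPM and 2.22, 2.11, and 2.04 against 65.3, 70.8, and 79.4 CPM, and the feedback inhibitor *Smad7* at -2.38. No library overlapped for any of the 4 genes shown by library, and neither ligands nor receptors went 1 way: the receptors *Eng* and *Tgfbr3* were higher at 2.56 and 1.15, and the ligands *Inhbe* and *Bmp7* lower at -6.71 and -6.01. Wnt genes had 34 lower and 4 higher of 45, with *Lgr5* at 0.302, 0.235, and 0.362 against 20.9, 14.2, and 18.7 CPM, and the secreted antagonist *Sfrp4* higher at 4.53, 5.71, and 5.34 CPM in P2, 0.272, 0.538, and 0.724 CPM in CD324+, and 0.102, 0.218, and 0.211 CPM in CD31+ cells. The Hippo effector *Yap1* was at 3.48, 4.01, and 2.73 against 99.5, 92.6, and 98.7 CPM, while the upstream kinase *Stk4* (MST1) was higher at 128, 141, and 139 against 58.8, 60.4, and 60.6 CPM.

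In the insulin and IGF pathway the ligand *Igf2* was at 128, 186, and 136 CPM in P2 and 11670, 10760, and 11660 CPM in CD324+ cells (-6.24 ± 0.18), and *Insr* and *Igf2r* were lower at -2.38 and -3.47, while *Igf1r*, described above, was higher. *Igf2*, *Igf2r*, *Cdkn1c*, and *Grb10* are imprinted, and of 20 imprinted genes tested 16 were lower and 1 higher (median -4.52). *Dlk1* was at 29.1, 29.01, and 27.6 against 2429, 2502, and 2438 CPM. *Peg3* was at 43.4, 41.5, and 42.96 against 1426, 1271, and 1456 CPM, and *Phlda2* at -7.02. The member called higher was *Peg12*, at 7.08, 8.11, and 9.37 CPM in P2, 0.761, 0.897, and 0.724 CPM in CD324+, and 7.48, 8.59, and 7.55 CPM in CD31+ cells.

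Of 68 signalling genes of blood cells 29 were higher and 16 lower (24 and 18 with the authors' factors). Without the 10 that the study listed, 19 of 58 were higher and 16 lower, beside 33.8% and 36.1% of all genes. *Gab2*, an adaptor below KIT and the erythropoietin receptor, was at 65.9, 71.1, and 64.5 CPM in P2 and 12.01, 14.2, and 14.8 CPM in CD324+ cells (2.29 ± 0.12), *Jak2* changed by 1.47, and *Rac2* by 1.76. The list of erythropoietin signalling and its targets had 12 higher and 11 lower of 31, shares near those of all genes (8 and 14 with the authors' factors). *Gab2* was separate between the populations. Interferon-stimulated genes had 27 lower and 5 higher of 44 (median -1.54), with *Ifitm3* at 0.453, 1.701, and 0.8501 against 7.28, 6.93, and 10.1 CPM. *Cmpk2*, a mitochondrial nucleotide kinase of the same list, was higher at 16.6, 20.8, and 21.1 against 2.28, 4.33, and 4.04 CPM.

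Promoter sequences were searched for 8 short motifs to describe what the changed genes share. RefSeq (GRCm38.p6) windows from 250 bases before to 50 bases after the start were found for 11168 of the 15461 genes tested, 14287 windows in all, and both strands were read. The GATA motif (AGATAA) was in 7.28% of windows of genes more than 2-fold higher in P2 cells, 7.64% of those more than 2-fold lower, and 7.17% of all. The E2F motif (TTGGCGC) had the highest share in genes higher in P2 cells relative to all, 4.65% against 3.90%, and 2.75% in genes lower. The HNF4 site (AAAGTCC) had the highest relative share in genes lower in P2 cells, 5.49% against 4.17% of all, followed by the HNF1 site (GTTAAT) with 6.35% against 5.01% and the AP-1 and NF-E2 core (TGAGTCA) with 4.80% against 3.82%. The CACCC box (CACACCC) was in 7.86%, 9.48%, and 8.55% of windows of higher, lower, and all genes, the CCAAT box (CCAATCA) in 10.2%, 7.93%, and 9.16%, and the FOXA motif (TGTTTAC) in 2.76%, 2.87%, and 2.60%. These are shares of letters in windows and were not tested.

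Within lists, chosen after those shares were seen, the E2F motif was in 11 of 60 windows of DNA replication genes (18.3%) and 3 of 48 of nucleotide synthesis genes (6.25%), and the HNF1 site in 10 of 40 windows of apolipoprotein and plasma carrier genes (25%) and in 5 of 26 of coagulation genes (19.2%). The HNF4 site was in 2 of 40 windows of apolipoprotein and plasma carrier genes (5.0%) and 4 of 26 of coagulation genes (15.4%). The GATA motif was in 5 of 46 windows of erythroid factors (10.9%) and 1 of 21 of heme genes (4.76%). The 250 bases before the start are shown for *Zfp61*, the leading regulator that holds the E2F motif there. Also shown are *Mcm5* and *Pola1*, picked by size of change among DNA replication genes that hold it there (1.51 and 1.32). *Serpina1a* and *Alb* were picked likewise among apolipoprotein and plasma carrier genes that hold the HNF1 site there (-6.89 and -6.87). Coagulation genes and some other genes were left out of that choice. Capitals mark the E2F motif in the first 3 and the HNF1 site in the last 2, on either strand, and the E2F motif occurs 2 times in *Mcm5*. *Zfp61* is at chr7:24299550-24299799 (minus strand), *Mcm5* at chr8:75109259-75109508 (plus), *Pola1* at chrX:93632156-93632405 (minus), *Serpina1a* at chr12:103863620-103863869 (minus), and *Alb* at chr5:90460620-90460869 (plus).
Zfp61: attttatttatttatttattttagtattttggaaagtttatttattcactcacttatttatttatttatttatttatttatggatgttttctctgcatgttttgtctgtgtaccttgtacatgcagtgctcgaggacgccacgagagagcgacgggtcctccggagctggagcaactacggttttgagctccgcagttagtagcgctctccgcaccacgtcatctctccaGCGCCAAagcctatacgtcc
Mcm5: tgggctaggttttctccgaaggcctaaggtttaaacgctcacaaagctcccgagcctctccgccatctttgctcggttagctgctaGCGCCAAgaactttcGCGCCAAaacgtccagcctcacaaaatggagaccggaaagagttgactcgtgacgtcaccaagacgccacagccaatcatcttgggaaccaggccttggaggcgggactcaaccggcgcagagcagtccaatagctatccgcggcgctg
Pola1: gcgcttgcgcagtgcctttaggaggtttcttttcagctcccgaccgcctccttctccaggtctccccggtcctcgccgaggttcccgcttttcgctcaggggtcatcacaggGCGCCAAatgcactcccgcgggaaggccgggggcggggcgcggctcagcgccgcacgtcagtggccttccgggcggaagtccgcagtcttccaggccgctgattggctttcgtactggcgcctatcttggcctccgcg
Serpina1a: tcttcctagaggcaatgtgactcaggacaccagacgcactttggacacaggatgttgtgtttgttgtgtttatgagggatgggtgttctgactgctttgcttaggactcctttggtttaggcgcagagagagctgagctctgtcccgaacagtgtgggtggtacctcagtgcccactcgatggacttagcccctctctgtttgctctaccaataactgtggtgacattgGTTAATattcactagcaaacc
Alb: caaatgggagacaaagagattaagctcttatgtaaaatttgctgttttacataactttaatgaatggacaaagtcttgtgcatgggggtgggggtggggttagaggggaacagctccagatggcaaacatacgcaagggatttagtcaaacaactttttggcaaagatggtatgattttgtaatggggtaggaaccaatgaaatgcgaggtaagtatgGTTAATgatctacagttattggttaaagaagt
*Serpina1a* has near-identical neighbors, so its count of 3.67, 4.11, and 3.76 CPM in P2 and 429, 466, and 472 CPM in CD324+ cells may be shared among them. *Alb* was at 371, 354, and 366 CPM in P2 and 39350, 44280, and 44170 CPM in CD324+ cells, and *Pola1*, the catalytic subunit of the polymerase that starts each strand, at 195, 183, and 199 against 67.5, 79.9, and 82.95 CPM.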

How the data were processed

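Per the labels and the methods of the study, the authors trimmed single reads with cutadapt 1.11, aligned them with STAR 2.5.0a to GRCm38, and counted them per gene with featureCounts 1.4.6-p3. The deposited tables hold raw counts, used here for all tests, and a column the authors scaled per library by DESeq2 in R 3.5.1, treated as a score and used to read their library factors. Here 15461 of 38127 genes passed edgeR's filterByExpr, and the 9 E14.5 libraries were fitted together with TMM scaling and edgeR 4.0.16 (R 4.3.3, quasi-likelihood test, two-sided, Benjamini-Hochberg adjustment over all genes tested, threshold 0.05). The fit was tested on simulated data. Totals were 40714017 to 51559658 counts in the 6 libraries compared. The methods describe depletion of Ter119+ and CD45+ cells before the sort. Groups came from the labels. The remaining 3 of the 12 samples were not used.

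Genes were named by rule: called, no overlap of libraries, outside the study's printed lists, and at least 10 CPM over all genes or 5 CPM within lists in the higher population, taking the 10 largest changes in each direction over all genes, regulators, and surface genes, and up to 4 and 2 per list. Other genes named, such as related genes and late pathway steps, were picked after their values were seen. *Hk1*, *Myc*, *Itga4*, and adducin 2 among them are in the list printed in the study. Some genes that the rule names are not reported here. Members and lists were chosen with earlier results of these data known. Alternatives were DESeq2 1.42.0, other scalings and filters, a replicate block, and leaving out each library.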

Additional observations from a re-analysis of the deposited data

How the results depend on the processing

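The count of genes called, 10815, lay between 9118 (of 12016 genes with at least 10 counts in every library) and 11012 (DESeq2) under the alternatives that test for any change, and between 10220 and 10522 when each library was left out in turn. More than 2-fold increases numbered 2478, against 1493 with edgeR's glmTreat test of a change beyond 2-fold, 1586 with the authors' library factors, and 2393 to 2466 with a library left out. More than 2-fold decreases numbered 4305, against 3563 with glmTreat, 4869 with the authors' factors, 3101 with at least 10 counts in every library, and 4163 to 4392 with a library left out. The authors' factors shifted the median of all genes by -0.26 on the log2 scale relative to TMM and moved the share of calls that were higher in P2 cells from 48.4% to 38.2%, so small changes depend on the scaling. With those factors the medians of the Slc25 carriers (0.12) and of the Trim and Fbx genes (0.15) became -0.14 and -0.11. With at least 10 counts required in every library the median of purine and pyrimidine breakdown, -3.13, became 0.74, a filter that removes genes near 0 in 1 population. Same-numbered P2 and CD324+ libraries did not deviate together in all 3 pairs (correlations of 0.11, 0.03, and 0.02), and a fit with the replicate number as a replicate block called 10910 genes. Of 491 genes named by the rule, 0 turned direction under any alternative and 15 lost the call under at least 1. The rule took called genes without overlap, ranked by size of change in these same data. Few of them could turn direction, and their counts say little about genes outside the rule. The alternatives for list counts were chosen after seeing the data. The sources do not say whether counting used strand or multi-mapping reads, so near-identical, overlapping, and antisense genes are uncertain, and genes listed at 0 in all libraries give no level.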

Other observations

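In the Bcl2 and caspase list 14 of 32 genes tested were called higher in P2 cells and 10 lower (11 and 12 with the authors' factors), a share called near the 70.0% of all genes. *Bcl2*, which protects from apoptosis, was at 5.53, 5.51, and 4.47 CPM in P2 and 1.28, 1.704, and 2.71 CPM in CD324+ cells, and *Bmf*, which promotes it, at 0.669, 1.47, and 0.778 against 10.5, 12.8, and 10.3 CPM. Of 37 antioxidant genes 13 were higher and 12 lower (10 and 15 with the authors' factors), likewise near the share of all genes. *Nqo1*, a quinone reductase, was at 6.46, 5.65, and 7.62 against 1.22, 2.12, and 1.33 CPM. *Prdx2*, the peroxiredoxin abundant in red cells, was at 337, 298, and 288 against 97.9, 158, and 115 CPM, while *Gpx3*, the glutathione peroxidase of plasma, was at 0.756, 1.603, and 0.959 against 31.1, 37.96, and 36.9 CPM. Autophagy genes had 16 higher and 16 lower of 39, beside 33.8% and 36.1% of all genes (11 higher and 19 lower with the authors' factors). *Fbxo7* was at 45.1, 41.8, and 42.1 against 18.5, 19.5, and 19.7 CPM. *Map1lc3a* was at 1.25, 1.21, and 1.25 against 6.79, 8.37, and 7.75 CPM, so members stood on either side.

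Integrins had 9 lower and 6 higher of 21 (9 and 4 with the authors' factors), again near the share of all genes. *Itgb5* and *Itgav*, which pair as a vitronectin receptor, were at 2.25, 3.62, and 2.28 against 172, 161, and 166 CPM and 7.28, 8.04, and 7.597 against 87.02, 82.9, and 104 CPM, and *Itga6*, a laminin receptor chain, was higher by 1.05 ± 0.18. Keratin and polarity genes had 23 lower and 4 higher of 33, with *Krt18*, an intermediate filament gene of simple epithelia, at 4.73, 6.12, and 5.44 against 519, 547, and 518 CPM. Notch genes had 14 lower and 11 higher of 31, shares near those of all genes. *Notch1* was at 2.81, 17.01, and 4.18 against 33.3, 31.6, and 30.5 CPM, its target *Hes1* at 0.799, 1.76, and 0.8501 against 25.8, 29.3, and 23.96 CPM, and *Lfng*, which adds sugars to Notch receptors, was higher at 28.5, 26.6, and 20.7 against 5.68, 8.07, and 6.19 CPM. Among p53 targets 12 were lower and 7 higher of 27, with *Gdf15*, a secreted stress cytokine, at 0.324, 0.313, and 0.163 against 15.7, 12.9, and 19.8 CPM and *Ccng1* higher at 83.5, 76.8, and 87.3 against 18.8, 25.2, and 26.6 CPM. Among genes of one-carbon, serine, proline, and polyamine synthesis, 19 were higher and 12 lower of 32. *Aldh1l1*, of hepatic folate metabolism, was at 2.18, 1.94, and 1.7 against 140.4, 136, and 130.0 CPM.

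Among 19 megakaryocyte markers tested 3 were higher, 1 lower, and 15 not called, beside 33.8% higher and 36.1% lower of all genes. Without P2 replicate 2 the counts were 3 higher and 6 lower. The whole list summed to 129.3, 277.5, and 125.6 CPM in P2 and 163.8, 175.8, and 191.6 CPM in CD324+ cells. In CD31+ cells, which the filter also covered, the sum was 1040, 1713, and 1391 CPM. Which members passed the filter through CD31+ counts was not tested. Calls used the same edgeR quasi-likelihood test as the rest of the comparison.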
